A study of Mus musculus with 20 samples.

Results

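The livers described here are those of the 10 control fetuses among the 20 fetuses of a mouse study of maternal nutrient restriction. All 10 samples that the labels place in the control group were taken, and the 10 nutrient-restricted samples enter only an alternative estimate of the spread. The fetuses were males of the outbred CD-1 IGS strain at embryonic day 18.5, shortly before birth, and came from 5 control litters, called A to E, with 2 littermates each. Polyadenylated RNA of the right liver lobe was sequenced from each fetus. A fetus is named by its litter letter and number, such as A1. Littermates share a dam, and each litter has a different dam, so a difference between litters cannot be told apart from one in dam, pregnancy, genotype within the outbred strain, exact stage or time of collection. The labels do not say whether litters were collected, extracted or sequenced together, so litter and any handling batch cannot be told apart either.

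The liver of a late mouse fetus does several jobs at once. Its hepatocytes, the main cells of the organ, secrete albumin, transferrin, fibrinogen and other plasma proteins, and in the fetus also alpha-fetoprotein, while many enzymes of adult metabolism are still rising. The organ is also a site of blood formation, where erythroblasts, the precursors of red cells, fill with globin beside maturing neutrophils, megakaryocytes and other blood cells.

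The deposited counts of the 10 control fetuses totalled 14925778 to 27848100, with a median of 20016884, and 21281 to 22268 genes were detected per fetus. Levels are CPM (counts relative to the library total, scaled between fetuses by the trimmed mean of M-values, TMM), and levels are compared between genes only as TPM, which also allow for transcript length. Shares are percentages of all gene counts of a fetus, without that scaling. They do not allow for transcript length, so the short globin transcripts take a smaller share of counts than they would per length. Values written with ± are means and SD over the 5 litters, each litter being the mean of 2 littermates. The tissue label was checked against defining markers: albumin, alpha-fetoprotein and the adult globins were among the 10 most abundant genes per length in the set. Fetus B1 stood apart from the others, with transcripts of pancreas, and fetus D1, less so, with transcripts of skeletal muscle; both are described with the littermate differences.

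Albumin (Alb, the main plasma protein) was the most abundant transcript of these livers, at 63610 ± 3206 TPM and 8.68% of counts. Transferrin (Trf, the iron carrier of plasma) followed at 44570 ± 3478 TPM. The next 3 positions per length were held by adult globin genes, with Hbb-b1 at 34770 ± 6945 TPM, Hba-a1 at 32360 ± 6484 TPM and Hba-a2 at 31040 ± 6094 TPM. The globin genes of each pair are near copies of each other, so the split between them is uncertain. Their places in the ranking, also relative to Trf, depend on that split. Ahsg (fetuin-A) reached 21980 ± 2000 TPM, the imprinted non-coding RNA H19 16580 ± 1431 TPM and Afp (alpha-fetoprotein) 15900 ± 2186 TPM. The adult globin Hbb-b2 came next, at 11240 ± 1726 TPM, followed by transcripts of the mitochondrial respiratory chain, with mt-Co2 at 10700 ± 875 TPM. The fibrinogen chains were close to each other per length, with Fgb at 8671 ± 326 TPM, Fga at 7497 ± 219 TPM and Fgg at 6366 ± 168 TPM.

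The ranking by raw share gave a similar picture, and 15 of the 20 genes of highest CPM were also among the 20 highest per length. The other 5 were C3 (complement), Fn1 (fibronectin), Pzp (an inhibitor of proteases in plasma), Igf2 and a further gene model that overlaps Trf and carries the same name. The 20 most abundant genes took 29.5% to 32.9% of a liver's counts, and the 100 most abundant 44.02% to 47.5%. Growth-related imprinted genes were abundant in these late fetuses, with H19 at 1.56% of counts, Igf2 (a fetal growth factor) at 0.543% and Grb10 (an inhibitor of growth signalling) at 0.193%.

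Hepatocyte transcripts took about the same share in every fetus. The 46 genes of the plasma protein list summed to 27.2% ± 0.990 of counts, from 25.1% in A1 to 29.3% in B1. The further gene model named Trf is not counted in this list, in the hepatocyte sum or in the Trf level given above. All hepatocyte lists together held 31.4% ± 1.25, from 29.0% in D1 to 33.8% in B1, and averaged 31.1% without B1. Enzymes of mature hepatocytes made up 1.52% ± 0.187, from 1.10% in D1 to 1.75% in B2, led by Cps1, the entry enzyme of the urea cycle, at 888 ± 162 TPM. Both fetuses of litter D and fetus A1 were the lowest for these enzymes. Afp ranged from 14760 CPM in A1 to 32140 CPM in E2 with a median of 21840 CPM. Its littermates lay far apart in some litters, with 14760 and 22540 CPM in litter A and 20980 and 32140 CPM in E, and the litter share of its variance was 0.

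Erythroid transcripts were the second large block by counts and varied more. The 7 globin genes summed to 4.18% ± 0.851 of counts, from 2.51% in B1 to 5.46% in D1. The other erythroid genes (heme synthesis, membrane skeleton and maturation factors) summed to 1.13% ± 0.215, again lowest in B1, at 0.797%, and highest in D1, at 1.56%. Over 10 fetuses the highest value was 2.17 times the lowest for globins and 1.96 times for the other erythroid genes, against 1.16 times for plasma proteins. In bulk tissue, fewer cells of a type and less RNA per cell cannot be told apart.

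Embryonic globins were near the limit of detection. Hbb-bh1 was at 1.78 TPM and Hbb-y at 2.35 TPM, against 34770 TPM for Hbb-b1, an adult gene. Over the fetuses Hbb-bh1 lay between 0.235 and 1.27 CPM and Hbb-y between 0.450 and 1.55 CPM. The band 3 anion exchanger Slc4a1, the main red cell membrane protein, ranged from 880 CPM in B1 to 1962 CPM in D1. Alas2, which starts heme synthesis in red cells, ranged from 343 CPM in C2 to 658 CPM in D1.

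The lists of other blood cells, 118 genes in all, summed to 0.534% ± 0.0213 of counts, and most of it was in the neutrophil list. These shares depend on which genes were listed and do not measure the RNA or number of each cell type. The neutrophil list held 0.322% ± 0.0144, led by the alarmins S100a9, at 1765 ± 97.9 TPM, and S100a8, at 1582 ± 94.7 TPM. Macrophage genes held 0.120%, megakaryocyte genes 0.0524%, stem and progenitor genes 0.0223%, and B cell precursor genes 0.0102%. T and NK cell genes were at 0.00113%, and only 5 of the 15 in that list were high enough to be tested. Stromal lists (stellate, endothelial, mesothelial and bile duct) summed to 0.278% ± 0.0102. This sum includes Cd24a, the bile duct member of highest CPM, which is also in the erythroid membrane list and so counts in both blocks. The bile duct list, at 0.0786%, was lowest in B1 (0.0529%) and highest in D1 (0.101%), the same fetuses as for the erythroid lists.

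**Figure D1:**
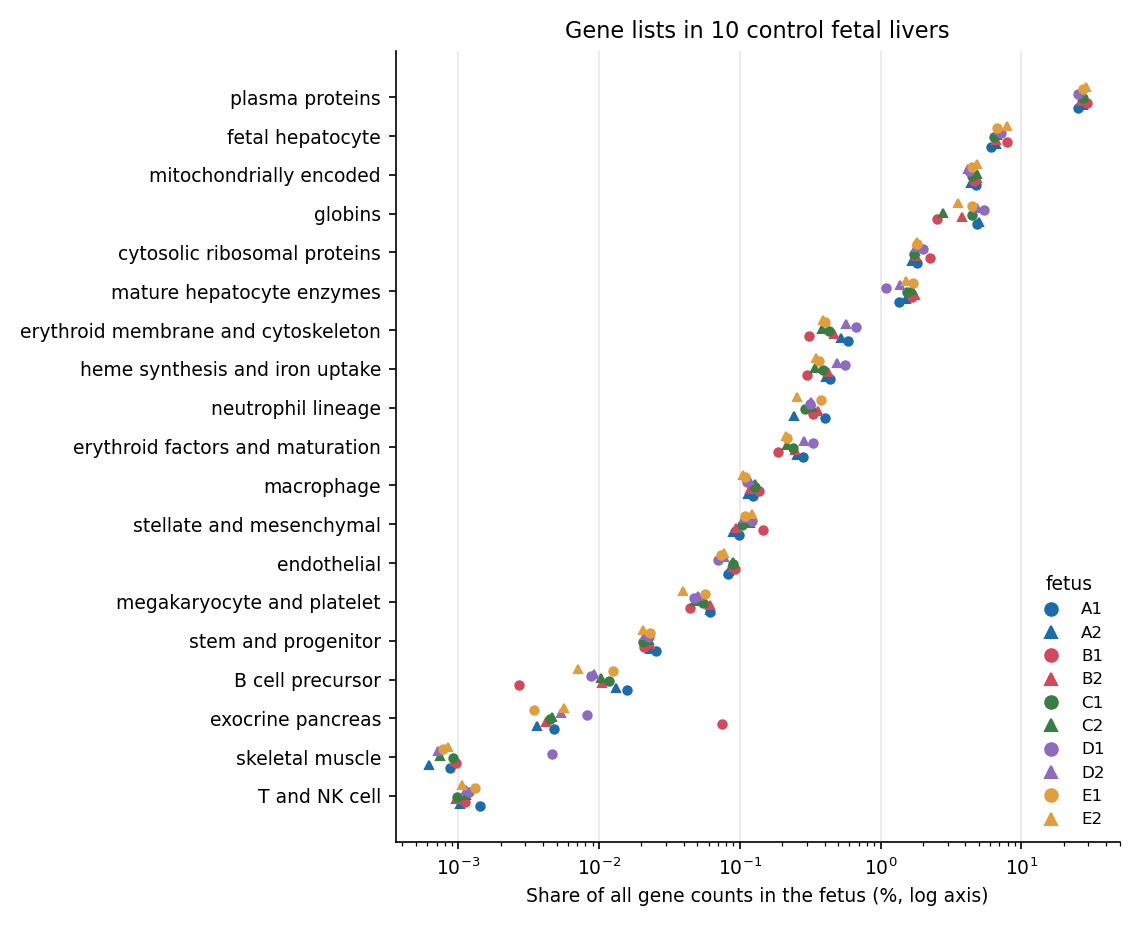
Share of all gene counts (%, log axis) taken by 19 gene lists in each of the 10 control fetuses; colour marks the litter, circles fetus 1 and triangles fetus 2. Plasma proteins lie between 25.1% and 29.3%, globins between 2.51% and 5.46%, and fetus B1 lies apart for pancreas (0.0749%) and B cell precursor genes (0.00272%), fetus D1 for skeletal muscle (0.00461%).

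Littermates resembled each other more than fetuses of different litters. After each gene's mean over the 10 fetuses was subtracted from its log2 CPM, the correlation across the 16232 tested genes averaged 0.227 for the 5 littermate pairs and -0.149 for the 40 other pairs. The littermate values were 0.352 in litter C, 0.295 in D, 0.264 in A, 0.114 in E and 0.111 in B, and the highest value of any other pair was 0.0452. Every littermate pair therefore lay above all 40 other pairs. Of the 945 ways to divide 10 fetuses into pairs, none other gave so large a difference between pairs and non-pairs, 0.376 (exact permutation test over pairings, one-sided, p = 0.00106, the smallest this design allows). These correlations are across genes, which are not independent replicates, and deviations from a shared mean are negatively related by construction.

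**Figure D2:**
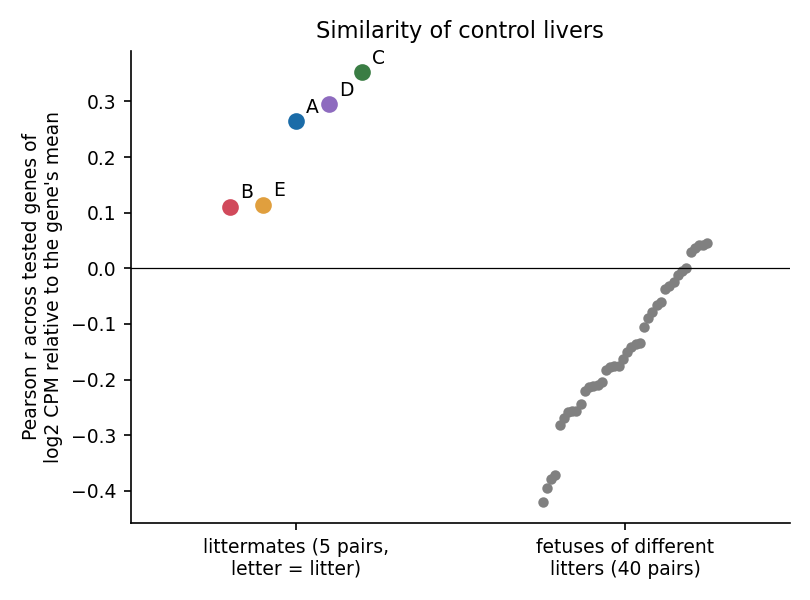
Pearson correlation across 16232 genes of log2 CPM relative to each gene's mean, for the 5 littermate pairs (letters) and for 40 pairs of fetuses from different litters. The littermate pairs lie between 0.111 and 0.352, all above the other pairs, which reach 0.0452.

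Most genes nevertheless varied as much between littermates as between litters. The litter accounted for a median of 33.5% of the variance of log2 CPM over the tested genes, 34.5% of genes had a litter share over 50%, and 25.8% had a share of 0. The median littermate difference was 0.21 on the log2 scale (root mean square over 5 pairs). A test of each gene for any difference between the 5 litters (edgeR's quasi-likelihood F-test, with 5 residual degrees of freedom) passed 366 of 16232 genes, 2.25% of those tested, at a Benjamini-Hochberg adjusted p of 0.05, and 3860 genes had an unadjusted p below 0.05. The labels name litters but not separate handling, so the p-values measure litter spread against the spread of these littermates.

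Of the 366 genes, 336 were protein coding, 143 differed more than 2-fold between the highest and the lowest litter and 46 more than 4-fold, with a median of 1.85-fold. In 326 of them, an extreme litter was apart from all other fetuses, which was also so for 38.7% of all tested genes. The litter farthest from the others was B in 29.5% of them (higher in 73 genes and lower in 35), against 28.5% of all tested genes, and D in 30.3% (higher in 30 and lower in 81), against 23.4%. It was C in 19.9%, A in 11.2% and E in 9.02%, against 15.5%, 17.2% and 15.4% of all tested genes. The count depended on single fetuses: it was 54 without C2, 92 without C1, 93 without D1, 121 without A1 and 1466 without B2, and 83, 125 and 233 without litters C, D and A. In 16 genes the call was made in all 15 fits that left out a fetus or a litter, and these included Fcnb, G6pc, Glo1, Pdk2, Plod2, Serpina5, Gstt1, Lrp5, Dvl1, G0s2 and Zbtb7c.

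**Figure D3:**
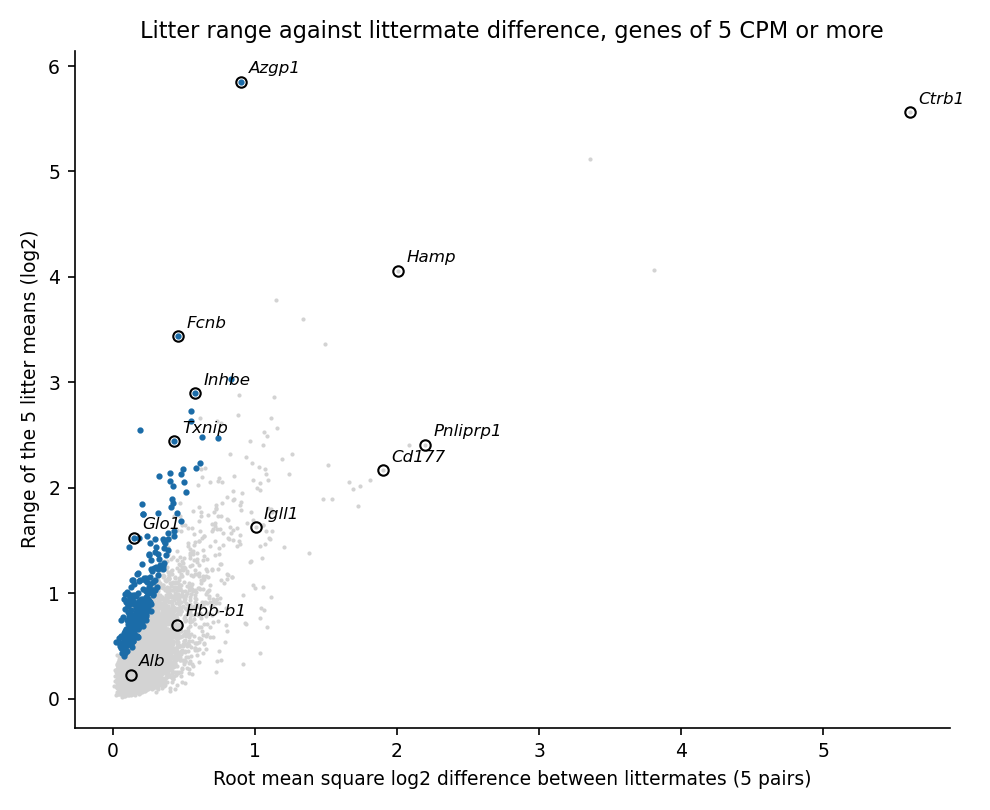
Range of the 5 litter means (log2) against the root mean square log2 difference between littermates, for genes of at least 5 CPM; blue points passed the litter test. Azgp1, Fcnb and Inhbe have a litter range well above their littermate difference and passed the test, Ctrb1, Hamp and Cd177 also differ widely between littermates and did not, and Alb lies low on both axes.

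The smallest p belonged to Fcnb (ficolin-B, a lectin of innate immunity made by myeloid cells; chromosome 2, 27931898 to 27940405, build mm9). Its level was 37.1 and 35.2 CPM in litter B, 18.2 and 22.3 CPM in C, and 2.54 to 4.55 CPM in the 6 fetuses of A, D and E. The litters thus fell into separate levels with no overlap, a 10.9-fold range (adjusted p = 0.0013), and the adjusted p stayed between 0.000177 and 0.00861 when any fetus or litter was left out. Fcnb was 1 of 21 genes in the neutrophil list past the test (4.76%, against 2.25% of all tested genes), a count too small to set the list apart. S100a8 was at 447 and 451 CPM in litter B and 325 to 527 CPM in A (adjusted p = 0.871), and Ltf (lactoferrin) had an adjusted p of 0.719.

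The widest litter range belonged to Azgp1, a secreted zinc-binding glycoprotein. It was at 437 and 237 CPM in litter B and at 178 and 237 CPM in C, and no other fetus was above 42.8 CPM. Litter D was lowest, at 4.13 and 7.23 CPM, so the highest and lowest litter means differed 59.3-fold (adjusted p = 0.0276, or up to 0.0793 with a fetus or litter left out). Apolipoprotein Apoa4, a lipid carrier, was likewise at 12.8 to 21.7 CPM in the 4 fetuses of B and C and at 1.78 to 7.54 CPM in the others (adjusted p = 0.0415). G0s2, an inhibitor of triglyceride breakdown, was at 56.6 to 81.6 CPM in B and C and 20.8 to 35.2 CPM elsewhere (adjusted p = 0.00617).

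Some genes of low level were near 0 in part of the litters. Slc35e4, a predicted transporter, was at 4.2 and 4.27 CPM in litter D and no higher than 0.653 CPM in the other 8 fetuses (adjusted p = 0.00212). Npy (neuropeptide Y) was at 0 and 0.05 CPM in litter B, against 1.07 to 3.18 CPM elsewhere (adjusted p = 0.00494). Prss22, a secreted protease, reached 3.12 and 11.3 CPM in A and 3.65 and 10.9 CPM in D and stayed at or below 0.150 CPM in B, C and E (adjusted p = 0.0375). Capn3, a calpain protease, was at 11.1 and 9.49 CPM in litter C and at most 2.67 CPM elsewhere (adjusted p = 0.00229, and from 0.000881 to 0.519 with a fetus or litter left out).

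Glo1 (glyoxalase 1, which detoxifies methylglyoxal) was at 82.2 and 90.5 CPM in litter B, 133 to 185 CPM in C, D and E, and 232 and 268 CPM in A (adjusted p = 0.00229). Litter B was below and litter A above all other fetuses. The gene lies at chromosome 17, 30729811 to 30749604 (build mm9). Of the 18 tested genes within 1000000 bases, Glo1 included, 2 passed the test: Glo1 and its neighbour Btbd9 (30352469 to 30713394). Btbd9 had the same order at its ends, with 14.7 and 14.0 CPM in litter B and 25.5 and 26.4 CPM in A (adjusted p = 0.0125). Over the genome, 47.3% of the genes past the test had another such gene within that distance, against 36.3% of the other tested genes.

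Litter B was also the extreme one for Pdk2, Oat and Mbl1. Pdk2, a kinase that holds back pyruvate oxidation, was at 70.5 and 83.2 CPM in B, 59.9 and 55.6 CPM in E and 33.8 to 39.4 CPM in A, C and D (adjusted p = 0.00229). Oat (ornithine aminotransferase) was at 81.7 and 73.1 CPM in B and 34.6 to 49.2 CPM in the rest (adjusted p = 0.0023). Mbl1, a mannose-binding lectin of plasma, went the other way, at 29.8 and 32.5 CPM in B and 50.6 to 61.5 CPM in the other 8 (adjusted p = 0.00366). For each of these 3 genes the littermates of B lay outside the range of the other 8 fetuses.

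**Figure D4:**
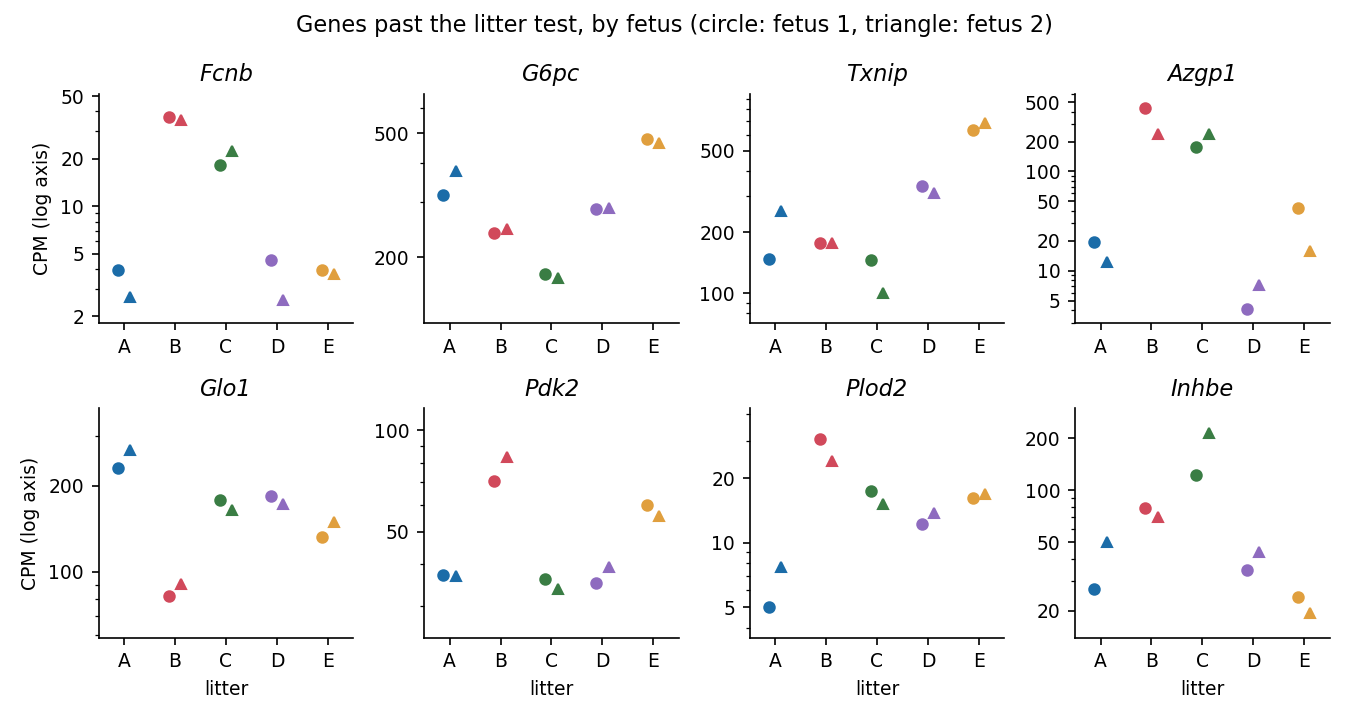
CPM (log axis) of 8 genes past the litter test in each control fetus, by litter. Littermates lie close together while litters separate, for example Fcnb at 37.1 and 35.2 CPM in litter B against 2.54 to 4.55 CPM in A, D and E, and G6pc at 478 and 466 CPM in E against 177 and 172 CPM in C.

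G6pc (the catalytic subunit of glucose-6-phosphatase, the last step of glucose release; chromosome 11, 101228875 to 101239217, build mm9) was at 478 and 466 CPM in litter E, 317 and 377 CPM in A, 285 and 289 CPM in D, 239 and 247 CPM in B and 177 and 172 CPM in C (adjusted p = 0.00229). No 2 litters overlapped. Txnip, which limits glucose uptake and rises with glucose in many cells, was at 632 and 682 CPM in E and 146 and 100 CPM in C, a 5.34-fold range (adjusted p = 0.0114). Pdk4, a fasting-induced kinase of the same kind as Pdk2, was highest in E too, at 73.6 and 85.5 CPM, and lowest in C, at 38.1 and 32.2 CPM (adjusted p = 0.0432). Mlxipl, the carbohydrate-responsive transcription factor ChREBP, had another order, with 72.1 and 72.7 CPM in C and 47.4 and 45.9 CPM in D (adjusted p = 0.019).

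In a list of carbohydrate response genes, drawn up after such values had been seen and so no independent finding, 4 of 18 tested members passed, against 2.25% of all tested genes (G6pc, Gpd1, Mlxipl and Txnip), and 2 passed with the erythroid level as a covariate or without C1, C2, D1, litter C or litter D. The 250 bases upstream of the Txnip start are shown because they hold the paired E-box sequence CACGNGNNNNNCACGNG, the kind of site through which ChREBP is known to act. The promoters of G6pc and of Afp are shown because each holds GTTAATNAT, letters of the site of the hepatocyte factor HNF1. Sequences are from RefSeq (GRCm38.p6), printed 5′ to 3′ on the gene's strand, with the match in capitals.

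Txnip (chr3:96557707-96557956, plus strand): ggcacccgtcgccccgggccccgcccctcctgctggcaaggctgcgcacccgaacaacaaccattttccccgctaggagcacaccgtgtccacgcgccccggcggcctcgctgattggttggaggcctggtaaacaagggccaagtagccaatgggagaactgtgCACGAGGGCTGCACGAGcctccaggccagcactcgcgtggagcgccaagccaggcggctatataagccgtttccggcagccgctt
G6pc (chr11:101367466-101367715, plus strand): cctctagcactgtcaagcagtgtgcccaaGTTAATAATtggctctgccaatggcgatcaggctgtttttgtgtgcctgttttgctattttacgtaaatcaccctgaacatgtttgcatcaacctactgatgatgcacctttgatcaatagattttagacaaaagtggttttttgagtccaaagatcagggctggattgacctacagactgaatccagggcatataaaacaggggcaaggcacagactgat
Afp (chr5:90490464-90490713, plus strand): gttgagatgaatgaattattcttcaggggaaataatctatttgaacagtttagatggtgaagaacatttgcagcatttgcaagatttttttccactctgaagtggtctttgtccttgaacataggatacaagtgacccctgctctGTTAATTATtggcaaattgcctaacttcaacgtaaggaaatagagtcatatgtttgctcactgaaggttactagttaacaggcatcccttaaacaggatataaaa

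Both strands were searched. The paired E-box was found in 0.0518% of the 27025 genes with a promoter entry, 14 genes in all. The GTTAATNAT letters were found in 6 of the 61 promoters matched among the 100 protein-coding genes of highest TPM (9.84%) and in 0.702% of the promoters of tested genes. They were found in 7 of the 235 promoters matched for genes past the litter test. With a further T required at the end of the pattern, as first searched, the counts were 3 of 61 (4.92%) and 5 of 235, against 0.421% of the promoters of tested genes. A match describes the letters in these windows and is not evidence of binding.

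Genes of the hypoxia response, which the factor HIF turns on when oxygen is low and which include glycolytic enzymes, had 9 of 18 tested members past the litter test, against 2.25% of all tested genes: Bnip3, Ddit4, Egln1, Ero1l, Hk2, P4ha1, Pfkfb3, Slc2a1 and Vegfa. This list and the cytochrome, glucocorticoid and gut lists below were chosen with earlier results of these data known. Their counts are therefore no independent finding. The hypoxia list's median litter share of variance was 76.7%, against 33.5% over all tested genes. Summed, the list held 0.219% and 0.245% of counts in A1 and A2, the lowest values, and 0.368% and 0.336% in B1 and B2, the highest.

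Bnip3 (a mitophagy receptor) was at 164 and 208 CPM in litter A, 268 to 293 CPM in C, D and E, and 434 and 411 CPM in B (adjusted p = 0.0108). P4ha1 (a collagen prolyl hydroxylase) was at 15.6 and 17.4 CPM in A and 25 to 34.1 CPM elsewhere (adjusted p = 0.0258). Pfkfb3, which speeds glycolysis, was at 27.2 and 28.7 CPM in A and 33.0 to 53.5 CPM elsewhere (adjusted p = 0.0224). For these 3 genes litter A lay below every other fetus. Egln1, an oxygen sensor that marks HIF for decay, was at 40.1 and 45.9 CPM in A and 66.0 and 69.1 CPM in B (adjusted p = 0.0359). Plod2 (a collagen lysyl hydroxylase, not in the list) was at 5.03 and 7.67 CPM in A and 30.4 and 24.2 CPM in B (adjusted p = 0.00685).

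The members did not all share an order. Slc2a1 (the glucose transporter GLUT1) was highest in litter D, at 231 and 176 CPM, and lay at 104 to 162 CPM elsewhere (adjusted p = 0.0367). Vegfa, the main growth factor of vessels, was lowest in D, at 69.1 and 80.8 CPM, and highest in B, at 121 CPM in both fetuses (adjusted p = 0.0375). Ldha and Pgk1, glycolytic members of the list, did not pass, with adjusted p of 0.109 and 0.0658 and their lowest values in A1, 721 and 173 CPM.

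With the erythroid level of each fetus as a covariate, the count of hypoxia members past the test was 2 of 18, and the count over all genes was 100. The erythroid share was lowest in B1 (3.31%) and highest in D1 (7.03%), with 6.12% in A1 and 6.21% in A2. The hypoxia list held 0.368% of counts in B1, 0.317% in D1, 0.219% in A1 and 0.245% in A2. The hypoxia count was 0 without C2, 2 without A1, C1 or D1, 5 without E1, E2 or litter B, 4 without litter A, 3 without litter D and 2 without litter C. The part of erythroid cells in the litter difference was not tested.

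In a glycolysis list, drawn up after values had been seen, 6 of 22 members passed, against 2.25% of all tested genes: Aldoa, Gpi1, Hk2, Pfkl, Pfkp and Tpi1. Aldoa (aldolase A) was at 123 and 151 CPM in A, 186 to 248 CPM in C, D and E, and 325 and 273 CPM in B (adjusted p = 0.0258). For each of Aldoa, Gpi1, Pfkl and Tpi1 the highest litter mean was in B and the lowest in A, with ranges of 1.69-fold to 2.18-fold. The count was 0 with the erythroid covariate and without A1, C1, C2, litter A or litter C, 1 without D1, 3 without B1, E1, E2 or litter B, and 10 without B2.

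**Figure D5:**
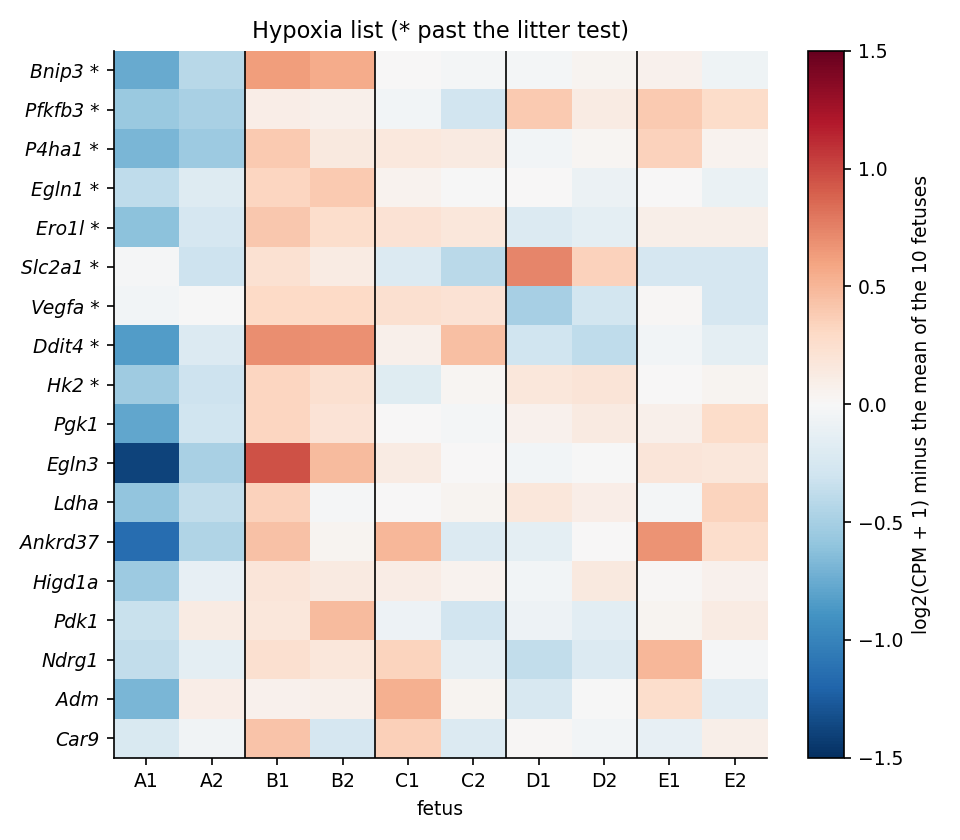
The 18 genes of the hypoxia list in each control fetus, as log2(CPM + 1) minus the mean of the 10 fetuses (colour); an asterisk marks genes past the litter test and lines divide the litters. Litter A is low and litter B high for most genes, with Slc2a1 highest and Vegfa lowest in litter D.

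The windows upstream of 3 of these genes are shown because HIF is known to bind the core ACGTG, marked in capitals on either strand (CACGT is the same core read from the other strand, and CACGTG holds both).

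Bnip3 (chr7:138909507-138909756, minus strand): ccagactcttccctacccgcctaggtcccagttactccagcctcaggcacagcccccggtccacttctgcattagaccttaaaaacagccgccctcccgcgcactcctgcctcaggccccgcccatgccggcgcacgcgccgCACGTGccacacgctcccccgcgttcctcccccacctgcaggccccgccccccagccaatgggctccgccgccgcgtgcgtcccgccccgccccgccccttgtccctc
Egln1 (chr8:124949255-124949504, minus strand): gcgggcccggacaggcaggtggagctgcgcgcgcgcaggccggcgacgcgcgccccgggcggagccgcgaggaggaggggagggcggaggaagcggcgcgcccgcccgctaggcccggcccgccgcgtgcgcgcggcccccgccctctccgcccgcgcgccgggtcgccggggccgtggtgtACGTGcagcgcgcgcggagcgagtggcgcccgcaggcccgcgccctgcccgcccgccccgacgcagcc
P4ha1 (chr10:59323046-59323295, plus strand): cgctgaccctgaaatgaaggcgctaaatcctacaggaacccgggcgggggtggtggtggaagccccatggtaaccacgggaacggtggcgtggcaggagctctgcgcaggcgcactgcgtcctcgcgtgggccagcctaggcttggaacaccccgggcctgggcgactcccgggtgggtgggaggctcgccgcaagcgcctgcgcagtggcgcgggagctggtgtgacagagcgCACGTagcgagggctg

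The core was found in all 8 members past the test that have a promoter entry, in 5 of 8 members not past it, and in 24.3% of the 9973 tested genes with an entry. The list was made of known HIF targets, so the match is no independent finding. A core of 5 letters is common, and it was found in 16.6% of all promoter windows of this length.

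Several genes of the integrated stress response had their highest values in litter C. Inhbe (a subunit of activin E, a hormone of the liver) was at 123 and 214 CPM in C, 78.7 and 70.4 CPM in B and 19.6 to 50.3 CPM in the other 6 (adjusted p = 0.0375). Fgf21, a starvation hormone, was at 2.99 and 6.76 CPM in C and at most 1.55 CPM elsewhere (adjusted p = 0.0319). Atf5, a transcription factor of this response, was at 882 and 1032 CPM in C and 411 and 536 CPM in D (adjusted p = 0.0314). Of 26 tested genes in a list of targets of the factor ATF4, drawn up after values had been seen, these 3 and Adm2, which was highest in B at 9.32 and 7.6 CPM, passed (adjusted p = 0.0312 for Adm2), a count of 4, against 2.25% of all tested genes. The count was 0 with the erythroid covariate and without C2, D1, litter C or litter D, 2 without A1, B1, C1 or E2, and 7 without B2. The amino acid enzyme Psat1, in the same list, had its highest values in D, at 307 and 250 CPM, and an adjusted p of 0.1.

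In the list of cytochromes P450 and conjugating enzymes, which process drugs and steroids, 5 of 31 members passed, against 2.25% of all tested genes: Cyp2d22, Cyp2e1, Gstt1, Ugt1a6a and Ugt2b5, with 1 to 9 members past it when a fetus or litter was left out (1 without C2, 2 without A1 or D1 and with the erythroid covariate, 3 without C1, litter C or litter D, 9 without B2 or D2). Cyp2e1, an enzyme of ethanol and ketone oxidation that rises around birth, was at 312 and 387 CPM in litter D and 1352 and 1109 CPM in B (adjusted p = 0.0319). Gstt1, a glutathione transferase, was at 45.6 and 54.3 CPM in A and 63.3 and 48.1 CPM in C, against 80.6 to 142 CPM in B, D and E (adjusted p = 0.00563). Reads of Ugt1a6a cannot be told apart from those of the Ugt1a genes that share its exons.

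Known targets of glucocorticoids, the hormones that mature the fetal liver, gave 5 of 20 members past the test, against 2.25% of all tested genes: Cdkn1a, Ddit4, Klf9, Pdk4 and Per1. Cdkn1a (the cell cycle inhibitor p21) was at 98.1 and 84.9 CPM in litter B and 40.4 to 69.4 CPM elsewhere (adjusted p = 0.0108). Per1 was at 67.8 and 74.0 CPM in B and 48.9 to 64.7 CPM elsewhere (adjusted p = 0.0442). Ddit4 is also counted in the hypoxia list. Pdk4 was highest in litter E, as given above, so the 5 members did not share an order. The count was 0 without C2, 1 without C1, D1, E1, E2 or litter B, C or D, 2 without D2 or with the erythroid covariate, and 3 without A1, A2, B1 or litter E. Igfbp1, a fasting-sensitive binding protein of growth factors, ranged from 937 CPM in D1 to 3536 CPM in B1 and had an adjusted p of 0.0694. The core clock genes gave no common order: Per1 and Nr1d2 passed, and Nr1d1 was low, from 0.620 to 2.55 CPM (adjusted p = 0.112).

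The gut list, drawn up as markers of a neighbouring tissue, had 4 of 8 tested members past the test, against 2.25% of all tested genes: Apoa4, Fabp1, Fabp2 and Lgals4. Fetal hepatocytes also express Apoa4 and Fabp1, a fatty acid carrier. Fabp1 was at 401 to 407 CPM in the 4 fetuses of B and D and 505 to 661 CPM in the other 6 (adjusted p = 0.0442), and Lgals4, a galectin, was at 23.6 and 24.4 CPM in B and 10.1 to 18.8 CPM elsewhere (adjusted p = 0.0258). Fabp2, the intestinal fatty acid carrier, was at 1.72 and 1.78 CPM in D and 2.08 to 5.04 CPM elsewhere (adjusted p = 0.0248), so the members did not share an order. The count was 0 without A1, C1, C2, D1, litter C or litter D, 1 with the erythroid covariate, and 2 without B1, D2 or litter B. The part of gut RNA in these values was not tested.

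Among growth and imprinted genes, Cdkn1c (a growth-restraining cell cycle inhibitor) was at 534 and 362 CPM in litter D and 114 to 289 CPM elsewhere (adjusted p = 0.0324). Cdkn1c was 1 of 30 tested imprinted genes past the test, a share of 3.33% that is near the 2.25% of all tested genes. Gpc3, a fetal cell surface proteoglycan, was at 1017 and 980 CPM in B and 481 and 488 CPM in E (adjusted p = 0.0307). H19 and Igf2, which share a control region, had adjusted p of 0.208 and 0.167.

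Of the lists that hold the most abundant genes, plasma proteins gave 0 of 45 and globins 0 of 7 members past edgeR's F-test, against 2.25% of all tested genes, which in lists of this size is close to 0. At an unadjusted p below 0.05 there were 16 plasma protein genes and 1 globin, with limma-voom 0 of each list passed after adjustment, and with DESeq2 14 plasma protein genes and 0 globins. Plasma protein genes had a median litter share of variance of 43.9% and a median littermate difference of 0.21 on the log2 scale, the latter like that of all tested genes. Globin genes had a larger littermate difference, 0.43, and a litter share of 28.3%. For Hbb-b1, litter C itself spanned 14850 CPM in C1 and 8901 CPM in C2, and litter B 8244 and 12670 CPM. Of the other erythroid genes 3 of 52 passed (5.77%, against 2.25% of all tested genes): Alad (heme synthesis), at 319 and 346 CPM in litter D and 174 to 276 CPM elsewhere (adjusted p = 0.0163), Icam4, and Mgst3, at 62.4 and 55.2 CPM in D and 26.2 to 53.1 CPM elsewhere (adjusted p = 0.0303).

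The largest differences between littermates were of pancreatic genes in a single fetus. Ctrb1 (chymotrypsinogen B, a digestive enzyme precursor) was at 214 CPM in B1 and 0 in B2, and at most 3.86 CPM in the others. Cela2a (an elastase) was at 56.6 CPM in B1 and at most 0.758 CPM in the others, and Clps (colipase) at 50.4 CPM against at most 0.792 CPM. The exocrine pancreas list summed to 0.0749% of counts in B1 and 0.00344% to 0.00823% in the other 9, where D1 was the highest. The insulin genes Ins1 and Ins2 were at 6.89 and 9.50 CPM in B1 and at most 0.172 CPM elsewhere. In the ranking by littermate difference over genes of at least 5 CPM, with predicted names passed over, 9 of the 12 first places went to these digestive enzymes, 5 of them the amylase genes Amy2a2 to Amy2a5 and Amy2b, which are near copies of each other.

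The remaining 3 places went to Hamp, Cd177 and Dnaic2. Hamp (hepcidin, the hormone that limits iron uptake) ranged from 3.72 CPM in C1 to 247 CPM in B1, with 45.3 CPM in the littermate B2, 65.8 and 10.0 CPM in litter E, and 23.3 and 5.54 CPM in A. Cd177, a neutrophil surface protein, was at 26.8 and 4.49 CPM in litter C, 3.58 and 26.8 CPM in D and 58.2 and 21.2 CPM in E. Neither passed the litter test (adjusted p = 0.267 for Hamp and 0.646 for Cd177); for Hamp litter C lay below B and D, and for Cd177 most litters overlapped. Dnaic2, a dynein subunit of cilia, was at 8.26 and 1.05 CPM in litter B.

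The interferon response list had a median littermate difference of 0.66 on the log2 scale, against 0.21 over all tested genes, and 0 of its 24 members, against 2.25% of all tested genes, passed the litter test by edgeR's F-test (7 at an unadjusted p below 0.05, 5 with DESeq2 and 0 with limma-voom after adjustment). Its member Iigp1, an antiviral GTPase, was at 47.2 CPM in D1 and 180 CPM in D2. The B cell precursor list had a median littermate difference of 1.01 and was lowest in B1, at 0.00272% of counts against 0.0105% in B2 and 0.00714% to 0.0158% in the others. Rag1, which rearranges antibody genes, was at 2.55 CPM in B1 and 12.1 CPM in B2. Scd1, a desaturase of fatty acid synthesis, was at 49.4 CPM in B1 and 210 to 422 CPM in the other 9.

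Fetus B1 therefore combined several extreme values: the highest pancreas, plasma protein and Hamp levels, the lowest globin, mitosis and B cell precursor shares, and the lowest Scd1. Its mitosis list held 0.122% of counts, against 0.165% to 0.261% in the other 9. Fetus D1 had the highest erythroid and mitosis shares and a skeletal muscle list at 0.00461% of counts against 0.000614% to 0.000964% in the others, with Acta1 (skeletal actin) at 12.4 CPM and Myh8 (a perinatal myosin) at 9.71 CPM. The part of pancreas or muscle RNA in the other values of B1 and D1 was not tested. Without B1 the count of genes past the litter test was 416, and without D1 it was 93.

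Litters also differed in how alike their 2 fetuses were. Among 11491 genes of at least 5 CPM, 124 differed more than 2-fold between the littermates of B, 81 between those of D, 64 in E, 49 in A and 20 in C. Each of these is a comparison of 2 libraries, with no replicate within the pair.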

How the data were processed

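The authors deposited whole-number counts per transcript for each fetus, not normalized. The tools listed per the submitters' processing notes are Bowtie2, edgeR, DESeq2 and FastQC, and the build is mm9. The counting tool, versions, strand use and treatment of multiply matching reads were not given in the sources used here. The levels of near copies and overlapping genes are therefore uncertain. Counts were summed to genes by GENCODE M1 on NCBIM37, which is that build; unmatched transcripts held 0.0929% to 0.130% and were left out. No pair of control libraries was a repeat within sampling noise. A deposited gene table of the series was not used, because its values are not these sums.

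Genes with a mean of at least 0.5 CPM were tested for a difference between the 5 litters with edgeR 4.0.16 (TMM, quasi-likelihood F-test, R 4.3.3), with Benjamini-Hochberg adjustment over all 16232 genes. Log2 CPM used a prior count of 2. On simulated counts the test made more false calls than its nominal rate where the spread differed strongly from gene to gene, and DESeq2 made more. DESeq2 1.42.0 and limma 3.58.1 were alternatives, with other scalings, filters, covariates and each fetus or litter left out.

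Members and lists were chosen with earlier results of these data known, and the glycolysis, ATF4 and carbohydrate lists after their values were seen; all describe and support nothing by themselves. Of 812 list genes 10 were unmatched. Genes named are the 20 highest by CPM and by TPM; of those past the test with at least 1 CPM and no predicted name, the 12 of widest litter range and then the 12 of smallest p; the 12 of largest littermate difference with at least 5 CPM (predicted names passed over here too, a choice made after seeing values); per list up to 4 of highest CPM and 3 of smallest p; and a set of standard liver and blood genes. Plod2, Btbd9, G0s2, Lrp5, Gstt1 and further members of the lists past the test were added after their values were seen.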

Additional observations from a re-analysis of the deposited data

Results flagged for a closer look

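Of 121 list shares and named genes examined over the 10 control fetuses, 20 had a highest or lowest fetus whose gap to the next, as a part of the whole range, exceeded Dixon's 95% critical value. Chance alone gives this in about 1 of 20 groups of independent, normally distributed values. Littermates are not independent, and the items share fetuses and in part genes, so 20 of 121 cannot be set against that rate. The rate also does not hold for the genes named for their large littermate differences (Ctrb1, Cela2a, Clps, Pnliprp1, the amylases and Hamp). Nor does it hold for Fgf21 and Inhbe, which were named for their wide litter range. The amylases are near copies of each other. In 15 of the 20 the fetus was B1. For lists of pancreas, B1 held 0.0749% of counts in the exocrine list (0.00344% to 0.00823% in the others) and 0.00224% in the endocrine list. For single pancreatic genes, B1 was at 214 CPM for Ctrb1, 136 CPM for Pnliprp1, 56.6 CPM for Cela2a and 50.4 CPM for Clps, and for the amylases at 148 CPM for Amy2a2, 98.5 CPM for Amy2a3, 50.1 CPM for Amy2a4, 53.1 CPM for Amy2a5 and 30.4 CPM for Amy2b. B1 was also the high fetus for Hamp (247 CPM, others at most 67.0 CPM), Ahsg (28870 CPM, others 18380 to 23240 CPM), Eef1a1 (4975 CPM, others 3617 to 4174 CPM) and the acute phase and iron list (3.67% of counts, others 3.07% to 3.31%).

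Fetus D1 was high for the skeletal muscle list, at 0.00461% of counts, and low for the sex-linked list, at 0.0145% against 0.0160% to 0.0176%. Fetus C2 was high for Inhbe, at 214 CPM, and Fgf21, at 6.76 CPM. Fetus A1 was high for the stem and progenitor list, at 0.0255% of counts against 0.0204% to 0.0230%.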

How the results depend on the processing

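The count of 366 genes that differed between litters was 1551 with DESeq2's likelihood-ratio test, 1715 with no filter, 735 with all 20 fetuses in 1 fit, 587 with no scaling beyond totals, 151 with the replicate block, 100 with the erythroid level as a covariate and 33 at an adjusted p of 0.01. It lay between 306 and 377 with limma-voom, RLE or upper-quartile scaling, a mean of at least 5 CPM, filterByExpr by litter, or the 20 most abundant genes removed. Leaving out 1 fetus or 1 litter gave 54 to 1466 genes; the cause was not tested. The replicate numbers showed no pairing of fetuses across litters. For this, the log2 differences between littermates, taken in order of replicate number, were correlated between litters. The 10 correlations, 1 for each pair of litters, ranged from -0.146 to 0.0907 and 0 were over 0.1. The similarity of littermates kept its direction and its side of 0.05 in all 9 alternatives, with differences of 0.354 to 0.512; without a litter the smallest possible p is 0.00952.

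With globins and mitochondrially encoded genes taken out of the total, the hepatocyte share was 34.4%, the other blood share 0.586% and the stroma share 0.305%, because the denominator is smaller. Shares without 1 fetus each, the abundance ranking and the littermate difference moved by less than the spread between litters or within 1.5 times. With 5 residual degrees of freedom, litter differences of moderate size are easily missed, and genes with few counts were limited by depth.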
